A study of Mus musculus with 6 samples.

Results

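Interferon-stimulated genes are the genes that cells switch on when an interferon reaches their surface, and 39 of them were followed here in infarcted mouse heart. The 39 were a list of symbols of the interferon response, and the list was drawn up with earlier results of these data known. All 39 were found among the 36047 genes to which the transcripts of the files could be joined, and all 39 were among the 20094 genes with enough counts to be tested (at least 10 counts in at least 3 libraries). RNA was taken from the infarct area of C57BL6 mice of 12 weeks, 48 h after ischemia/reperfusion (I/R, a coronary artery closed and then reopened). LGK974 was given to 3 of the mice and the solvent DMSO to the other 3. LGK974, given by mouth, inhibits Porcupine, which puts a lipid on Wnt proteins in the endoplasmic reticulum so that cells can secrete them. Both groups had the injury and neither an uninjured heart nor a mouse without I/R is part of the comparison, so each value below contrasts injured tissue with injured tissue.

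An infected or damaged cell that senses DNA or RNA in the wrong place makes type I interferons, which are secreted and bind the receptor IFNAR1/IFNAR2 on the same and on neighbouring cells. The kinases JAK1 and TYK2 then activate STAT proteins, STAT2 among them, which join IRF9 to form the factor ISGF3, and ISGF3 binds a short DNA element, the interferon-stimulated response element (ISRE), in front of the genes it switches on. Many of the proteins made restrict viruses, and several, including IRF7, STAT2 and the RNA sensors, belong to the pathway itself and amplify it. In infarcted myocardium the response is known mainly from macrophages and other myeloid cells that take up the debris of dead cells. In a piece of tissue, fewer cells of a type and less RNA per cell cannot be told apart.

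The element can be seen in the DNA in front of several members. Of the 39 genes, 29 have a promoter in the RefSeq table of the GRCm38.p6 assembly, covering 250 bases before and 50 bases after the gene's start. The ISRE core was searched on both strands as GAAANNGAAA. It was present in 14 of the 29 member promoters (48.3%), against 3.99% of the 27025 genes with a promoter in the table. A longer form, GAAANNGAAACT, was present in 8 of the 29 (27.6%) and in 0.303% of all genes. The members with an ISRE core were Stat2, Ddx58, Ifih1, Oas1a, Oas3, Eif2ak2, Ifit1, Ifit3, Rsad2, Gbp2, Isg15, Ifitm3, Bst2 and Trim30a, and the members not in the table are Dhx58, Zbp1, Oas2, Mx1, Mx2, Usp18, Parp9, Parp14, Rtp4 and Ifi27l2a. These are matches of letters in a window, and every promoter with the longer form also holds the core. Shown are the 60 bases around the cores of 6 members, chosen because the stretch holds more than 1 core or, for Rsad2, because the gene had the smallest p-value of the 39. The stretches lie at chr4:156200856-156200915 on the minus strand for Isg15, chr19:34640769-34640828 on the plus strand for Ifit1, chr19:34583365-34583424 on the plus strand for Ifit3, chr5:120907526-120907585 on the minus strand for Oas1a, chr8:71537565-71537624 on the minus strand for Bst2 and chr12:26456538-26456597 on the minus strand for Rsad2. Each is written 5′ to 3′ along the gene, and capitals mark the core in either orientation.
Isg15: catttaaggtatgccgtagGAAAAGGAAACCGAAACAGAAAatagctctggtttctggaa
Ifit1: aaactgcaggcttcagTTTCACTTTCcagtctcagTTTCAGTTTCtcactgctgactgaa
Ifit3: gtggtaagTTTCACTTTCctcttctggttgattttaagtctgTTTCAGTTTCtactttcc
Oas1a: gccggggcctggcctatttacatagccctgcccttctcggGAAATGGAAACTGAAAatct
Bst2: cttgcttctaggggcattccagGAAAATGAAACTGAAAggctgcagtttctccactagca
Rsad2: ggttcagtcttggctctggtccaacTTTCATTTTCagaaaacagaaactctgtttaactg
In Isg15 the 3 cores overlap in 1 run of capitals that begins at position −78 relative to the gene's start, and in Oas1a and Bst2 the 2 cores of the stretch also overlap. In Ifit1 and Ifit3 the 2 cores stand apart and lie on the strand opposite to the gene. The differences between LGK974 and DMSO overlapped between the 14 members with a core and the 15 without one, which ran from −0.05 to 1.43 (median log2 fold change 0.79) and from 0.25 to 1.32 (median 0.55).

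Library totals ran from 46208470 to 80398211 estimated counts under LGK974 and from 41579787 to 48517100 under DMSO, and the members had between 54 and 9915 counts in a library. Mitochondrially encoded genes took 28.2 to 53.7% of the counts under LGK974, lowest in replicate 3, and 39.3 to 42.8% under DMSO. DMSO replicate 1 stood apart. Of 1466 olfactory and vomeronasal receptor genes, which heart tissue should not transcribe, 99.3% had counts in it (61.0 to 89.0% in the other 5 libraries), at a median of 38.8 counts per kb of effective length (3.90 to 15.0 in the others). That level would account for a median of 18.0% of a member's counts in DMSO replicate 1 (range 0.652 to 75.2%) and for over 25% in 15 of the 39. The main results for the members are therefore given with and without this library. Most summed levels, and the ratios between them, are given with all 6 libraries only. Its origin was not tested. Levels are CPM, the estimated counts of a gene scaled to a common library size with the TMM method, always listed in the order of replicates 1, 2 and 3.

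The interferon-stimulated genes were higher in the infarct tissue of the LGK974 mice, by modest amounts and nearly all together. The fitted difference was above 0 in 38 of the 39 members, with a median log2 fold change of 0.68, where 40.5% of all genes tested were above 0 and their median was −0.13. In 27 members all 3 LGK974 libraries lay above all 3 DMSO libraries, which was the case for 10.7% of all genes. Irf7, Ifit3, Isg15, Oas1a and Zbp1 were among the members with the larger differences, 2.33 to 2.70 times the DMSO mean. None of the 39 passed edgeR's quasi-likelihood test after Benjamini-Hochberg adjustment over all 20094 genes (adjusted p from 0.368 to 0.953), and neither did any other gene (0% called). At an unadjusted p under 0.05, 23 members were higher and 0 lower, against 6.26% of all genes higher. DESeq2, the program used in the study, called 11 members at an adjusted p under 0.05, all higher, against 0.985% of the 22238 genes to which it gave an adjusted p: Irf7, Oas1a, Oasl2, Ifit2, Ifit3, Rsad2, Isg15, Ifitm3, Bst2, Rtp4 and Trim30a.

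Without DMSO replicate 1 the differences were as large. All 39 members were then above 0, against 46.8% of all genes, with a median of 0.77, and 28 had an unadjusted p under 0.05 against 6.67% of all genes higher. The lowest adjusted p among members was 0.267 in that fit of edgeR, and DESeq2 called 16 members, including all 11 named above, against 2.04% of all genes. LGK974 replicate 3 weighed more. It was the highest library in 37 of the 39 members, against 22.5% of all genes. Without it, 37 members were above 0 against 44.5% of all genes, and the median was 0.53 where that of all genes was −0.07. In that fit 19 members had an unadjusted p under 0.05, all in the higher direction, against 3.14% of all genes.

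The 3 treated mice differed in degree. Relative to the DMSO mean, the median member was at 1.32 times in LGK974 replicate 1, 1.51 times in replicate 2 and 1.89 times in replicate 3. In replicate 3, 19 members reached 2 times the DMSO mean, against 5 in replicate 2 and 0 in replicate 1. The single highest value was 3.93 times, for Zbp1 in replicate 3. Replicate 1 was the lowest treated mouse, and replicate 3 the highest, in 30 of the 39 members, and in 8 more replicate 3 was the highest and replicate 2 the lowest. Replicate 3 also had the smallest mitochondrial share of the 6 libraries and the highest summed leukocyte markers, and their part in its high values was not tested. Among DMSO libraries the medians were 0.977, 1.03 and 0.921 times. Across the 6 libraries the members moved together, with a median Pearson correlation of 0.83 between pairs of members. This is a description, since the 2 groups and the shared library sizes enter every pair.

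**Figure D1:**
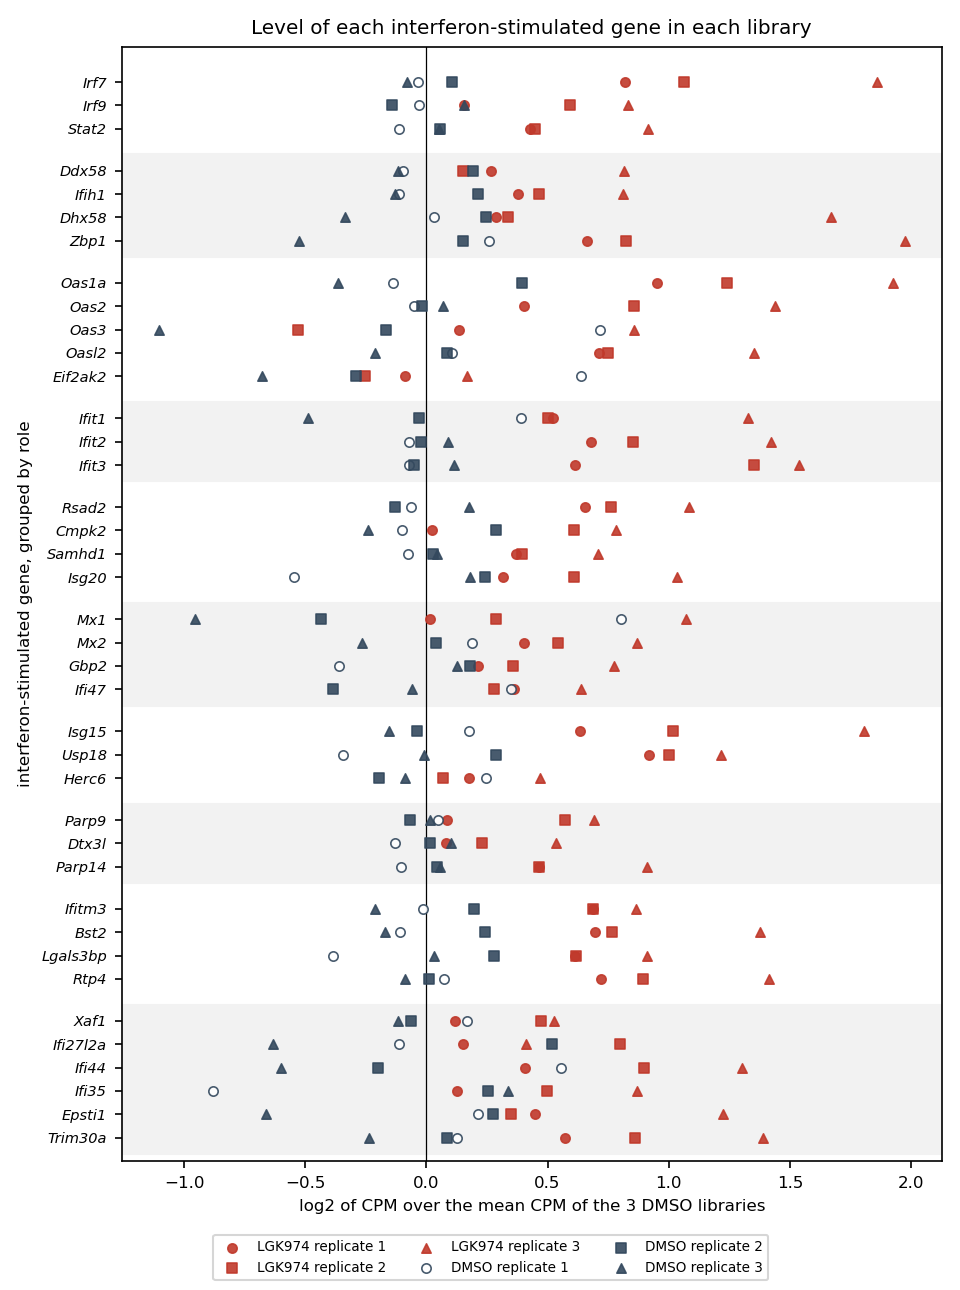
Level of the 39 interferon-stimulated genes in each of the 6 libraries, as log2 of CPM over the mean of the 3 DMSO libraries, with genes grouped by role on the vertical axis and DMSO replicate 1 drawn as open circles. LGK974 replicate 3 (red triangles) is the rightmost point in 37 of the 39 genes, and the 3 LGK974 points lie right of all DMSO points in 27.

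Levels between members were compared per length, in TPM as deposited and summed per gene, a scale without the TMM step. Under DMSO, 10 members were above 10 TPM and 25 were under 5 TPM. Ifitm3, which blocks the fusion of viruses with endosomal membranes, was the most abundant at 127 ± 30.4 TPM under DMSO and 283 ± 137 TPM under LGK974 (SD, n = 3 each). Its lowest DMSO library lay above the highest DMSO library of the next member, Ifi27l2a at 36.0 ± 17.2 TPM under DMSO and 62.7 ± 22.8 TPM under LGK974. Bst2 followed at 33.4 ± 9.41 TPM under DMSO and 90.9 ± 62.3 TPM under LGK974. Below Ifitm3, neighbours in the order overlapped between DMSO libraries at every step but 1, the step from Ddx58 to Eif2ak2. At the low end stood Ifi47 at 1.04 ± 0.313 TPM under DMSO and 2.01 ± 1.52 TPM under LGK974. The SD under LGK974 was wide on this scale, which is not corrected for the mitochondrial share of a library, and 17 members were separated between groups in TPM, against 3.53% of all genes.

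The transcription factors of the response come first. Irf7, which drives the second wave of interferon production and is itself an interferon target, was at 15.9, 18.9 and 32.8 CPM under LGK974 and 8.82, 9.72 and 8.55 CPM under DMSO. All treated mice were above all controls, with replicate 3 at the top and the controls within a narrow band. The group means were 22.5 ± 8.99 CPM under LGK974 and 9.03 ± 0.615 CPM under DMSO (SD, n = 3 each). The fitted log2 fold change in edgeR was 1.32. Its standard error of 0.276 was worked out from the fold change and the F statistic of the test. The pair is written 1.32 ± 0.276 here and so for the other genes. In DESeq2 the adjusted p of Irf7 was 0.00633. Stat2, the part of ISGF3 that carries the activation domain, was at 25.2, 25.5 and 35.3 CPM under LGK974 and 17.3, 19.4 and 19.4 CPM under DMSO, without overlap (0.61 ± 0.177, unadjusted p = 0.00884 in edgeR). Irf9, the DNA-binding part of ISGF3, was at 11.1, 15.0 and 17.7 CPM under LGK974 and 9.73, 8.998 and 11.1 CPM under DMSO. Its lowest treated and highest control values nearly touched (0.55 ± 0.212), and it shares 123 exon bases with Rnf31 on the same strand, so its reads can be divided between the 2 genes. Irf7 shares 45 exon bases with Phrf1 on the opposite strand.

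Among the sensors of foreign nucleic acid the differences were less even. Zbp1, a sensor of left-handed nucleic acid that can trigger necroptosis, was at 6.82, 7.63 and 16.9 CPM under LGK974 and 5.15, 4.78 and 2.996 CPM under DMSO. Replicate 3 of LGK974 had 2.48 times the level of replicate 1, and the groups did not overlap (1.28 ± 0.398, unadjusted p = 0.0129). Ifih1, which encodes MDA5, a detector of long double-stranded RNA, was at 23.6, 25.1 and 31.8 CPM under LGK974 and 16.8, 21.1 and 16.6 CPM under DMSO. The groups were separate but close (0.56 ± 0.179). Dhx58, which encodes LGP2, a helper of MDA5, was at 4.65, 4.81 and 12.1 CPM under LGK974 and 3.90, 4.53 and 3.02 CPM under DMSO. Replicate 3 stood far above the rest, and the other treated mice were barely above DMSO replicate 2 (0.91 ± 0.413, unadjusted p = 0.0586). Ddx58, which encodes RIG-I, overlapped between groups (0.44 ± 0.209, and −0.21 with counts derived from TPM). DESeq2 called 0 of these 4.

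The oligoadenylate synthetases make the second messenger that turns on RNase L, which cuts RNA in the cell. Oas1a, Oas2 and Oas3 lie in a cluster on chromosome 5 (GRCm38, Oas2 chr5:120730333-120749853, Oas3 chr5:120753098-120777661, Oas1a chr5:120896256-120907521), and Oasl2 lies on the same chromosome at chr5:114896936-114912234. Oas1a had the largest fitted difference of the 39, at 4.65, 5.69 and 9.14 CPM under LGK974 and 2.19, 3.16 and 1.87 CPM under DMSO (1.43 ± 0.352, DESeq2 adjusted p = 0.0409). The groups did not overlap. It is a low gene, 75.2% of its counts in DMSO replicate 1 could be of the level seen in silent genes, and its reads can be shared with near-identical copies such as Oas1g. Oas2 was at 15.2, 20.8 and 31.2 CPM under LGK974 and 11.1, 11.4 and 12.1 CPM under DMSO, with the controls within 0.975 CPM of each other (0.96 ± 0.258). Oasl2, a relative with a ubiquitin-like tail, was at 42.6, 43.7 and 66.3 CPM under LGK974 and 27.9, 27.6 and 22.4 CPM under DMSO and passed in DESeq2 (adjusted p = 0.00943), with 0.97 ± 0.214 in edgeR. Again no treated mouse fell among the controls.

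Oas3 and Eif2ak2 did not hold their sign, and both moved up when DMSO replicate 1 was left out. Oas3 was at 6.14, 3.88 and 10.1 CPM under LGK974 and 9.20, 4.99 and 2.60 CPM under DMSO, with DMSO replicate 1 above 2 of the treated mice (0.27 ± 0.502, and 0.85 without that library). Eif2ak2 encodes PKR, the kinase that stops translation when it binds double-stranded RNA, and was at 55.6, 49.6 and 66.4 CPM under LGK974 and 92.0, 48.4 and 37.0 CPM under DMSO. The highest value of all 6 was in DMSO replicate 1, and the fitted difference was −0.05 ± 0.327, or 0.45 without it. They are the 2 members whose sign changed when 1 library was left out. For Oas3 this was LGK974 replicate 3 (−0.0591). For Eif2ak2 it was DMSO replicate 1 (0.45) and also LGK974 replicate 2 (0.14). The other 37 of the 39 stayed above 0 in every such fit, and Oas3 and Eif2ak2 were singled out after their values were seen.

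The IFIT proteins bind viral RNA that lacks the host's cap methylation. Their 3 genes are neighbours on chromosome 19 (Ifit2 chr19:34550694-34576419, Ifit3 chr19:34583531-34588731, Ifit1 chr19:34640871-34650009), and all 3 were separated between groups. Ifit3 was at 11.9, 19.9 and 22.6 CPM under LGK974 and 7.41, 7.51 and 8.42 CPM under DMSO. Replicate 1 was the lowest of the treated mice and still 3.50 CPM above the highest control, and the means were 18.1 ± 5.54 CPM under LGK974 and 7.78 ± 0.558 CPM under DMSO (SD, n = 3 each). The fit gave 1.22 ± 0.2499 (DESeq2 adjusted p = 0.00931). Ifit2 was at 17.0, 19.2 and 28.5 CPM under LGK974 and 10.1, 10.4 and 11.3 CPM under DMSO (1.02 ± 0.218, DESeq2 adjusted p = 0.0213). Its controls spanned 1.19 CPM and its lowest treated mouse was 5.70 CPM above them. Ifit1 was at 17.6, 17.4 and 30.8 CPM under LGK974 and 16.1, 12.0 and 8.74 CPM under DMSO, where the control spread was wider and DMSO replicate 1 came within 1.31 CPM of the lowest treated mouse (0.84 ± 0.303, DESeq2 adjusted p = 0.129, and 1.10 without DMSO replicate 1). Ifit3 and Ifit1 have near-identical neighbours, Ifit3b and Ifit1bl1, with which reads can be divided.

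Rsad2 and Cmpk2 are a divergent pair on chromosome 12 (Rsad2 chr12:26442746-26456452 on the minus strand, Cmpk2 chr12:26469204-26479837 on the plus strand). Rsad2 encodes viperin, which makes a chain-terminating nucleotide from CTP, and was at 21.9, 23.5 and 29.4 CPM under LGK974 and 13.3, 12.7 and 15.7 CPM under DMSO. The treated mice were all higher than the controls (0.84 ± 0.173, the smallest unadjusted p of the 39 at 0.00134, DESeq2 adjusted p = 0.0286). Cmpk2, a nucleotide kinase that can supply viperin with CTP, was lower in level and overlapped between groups (0.50 ± 0.275). Samhd1, which lowers the pool of deoxynucleotides and so starves reverse transcription, was at 46.2, 47.0 and 58.4 CPM under LGK974 and 33.9, 36.5 and 36.8 CPM under DMSO. The groups were separate, with controls within 2.89 CPM of each other (0.50 ± 0.155, unadjusted p = 0.0128). Isg20, an RNA exonuclease, was at 3.70, 4.53 and 6.09 CPM under LGK974 and 2.04, 3.52 and 3.36 CPM under DMSO with no overlap, but the gap was 0.182 CPM (0.68 ± 0.330, unadjusted p = 0.0735).

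Of the 4 interferon-induced GTPases 0 had an unadjusted p under 0.05 with all 6 libraries (median 0.50). Without DMSO replicate 1 the median was 0.70, and Mx1 and Mx2 had unadjusted p-values of 0.00478 and 0.0214. Mx2 was at 3.59, 3.96 and 4.96 CPM under LGK974 and 3.09, 2.79 and 2.26 CPM under DMSO (0.62 ± 0.286), and is annotated as a polymorphic pseudogene in GRCm38. Gbp2, a guanylate-binding protein that attacks membranes around microbes, was at 8.98, 9.93 and 13.2 CPM under LGK974 and 6.03, 8.77 and 8.45 CPM under DMSO, separate by 0.205 CPM (0.47 ± 0.234). Ifi47, a member of the same wider family of GTPases, had the fewest counts and overlapped (0.44 ± 0.404). It shares 111 exon bases with Olfr56 on the same strand.

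Mx1, the dynamin-like GTPase that traps viral nucleocapsids, was at 8.53, 10.3 and 17.7 CPM under LGK974 and 14.7, 6.25 and 4.35 CPM under DMSO. DMSO replicate 1 lay above 2 of the treated mice, so the groups overlapped (0.53 ± 0.472), and the difference was 1.22 without that library. By transcript, the excess of DMSO replicate 1 was in one model marked for nonsense-mediated decay, Mx1-203, with 523 estimated counts there against 83.4 to 447 in the other 5 libraries. The protein-coding model Mx1-201 had 204, 266 and 347 estimated counts under LGK974 and 29.2, 49.1 and 32.3 under DMSO. The counts of both models are not scaled for library size, which differed between libraries, so they do not give the size of a difference. With the counts of protein-coding transcripts alone, the fitted difference of Mx1 was 1.55 and that of the 38 members with such transcripts had a median of 0.65. The values of Mx1 are given, and its transcripts were looked at, after its values were seen, and how Kallisto divides reads between transcripts of one gene is less certain than the gene's sum.

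ISG15 is a ubiquitin-like protein that is attached to other proteins and also secreted, and Usp18 removes it and blocks IFNAR2 signalling. Isg15 was at 11.01, 14.4 and 24.8 CPM under LGK974 and 8.02, 6.91 and 6.39 CPM under DMSO. The lowest treated mouse was above the highest control, and replicate 3 had 2.25 times the level of replicate 1 (1.24 ± 0.305, DESeq2 adjusted p = 0.0262). Usp18 was at 6.93, 7.33 and 8.52 CPM under LGK974 and 2.89, 4.47 and 3.64 CPM under DMSO, with the treated mice close together (1.05 ± 0.243, unadjusted p = 0.00276 in edgeR and adjusted p = 0.0620 in DESeq2). Herc6, the ligase that attaches ISG15 in mice, overlapped and had a small difference (0.25 ± 0.181).

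PARP9 and DTX3L form a complex that modifies histones, and PARP14 is a mono-ADP-ribosyltransferase encoded near them on chromosome 16. Parp14 was at 62.3, 62.5 and 85.0 CPM under LGK974 and 42.0, 46.6 and 47.0 CPM under DMSO, without overlap (0.63 ± 0.177, unadjusted p = 0.00780). Parp9 was at 17.4, 24.3 and 26.4 CPM under LGK974 and 16.9, 15.6 and 16.6 CPM under DMSO, where replicate 1 of LGK974 was 0.448 CPM above the highest control (0.47 ± 0.185). Dtx3l overlapped (0.29 ± 0.166). The exons of Dtx3l and Parp9 share 458 bases on opposite strands, and whether strand was used in counting is not given in the sources used here.

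Of the membrane and secreted proteins 4 of 4 were separated, against 10.7% of all genes, and DESeq2 called 3, against 0.985% of all genes. Ifitm3 was at 117, 117 and 132 CPM under LGK974 and 71.9, 83.0 and 62.6 CPM under DMSO. The treated values lay within 15.3 CPM of each other, the lowest of them 33.7 CPM above the highest control, and the means were 122 ± 8.83 CPM under LGK974 and 72.5 ± 10.2 CPM under DMSO (SD, n = 3 each). The fitted difference was 0.75 ± 0.171 (DESeq2 adjusted p = 0.00807). Bst2, or tetherin, which holds budding viruses at the cell surface, was at 37.8, 39.6 and 60.4 CPM under LGK974 and 21.6, 27.6 and 20.7 CPM under DMSO (0.98 ± 0.226, DESeq2 adjusted p = 0.0183). Rtp4, a chaperone for receptors at the membrane, was at 11.1, 12.6 and 18.0 CPM under LGK974 and 7.11, 6.83 and 6.36 CPM under DMSO (1.04 ± 0.221, DESeq2 adjusted p = 0.0256). In both genes replicate 3 was the high point of the treated mice. Lgals3bp, a secreted glycoprotein that binds galectin-3, was at 51.7, 51.9 and 63.7 CPM under LGK974 and 25.9, 41.1 and 34.6 CPM under DMSO, with DMSO replicate 1 the lowest of the 6 (0.72 ± 0.204, unadjusted p = 0.00812).

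The last 6 members have other or less certain roles. Trim30a, a tripartite-motif protein that restrains inflammatory signalling, was at 18.3, 22.4 and 32.3 CPM under LGK974 and 13.4, 13.1 and 10.5 CPM under DMSO (0.98 ± 0.234, DESeq2 adjusted p = 0.0299). The groups were separate. Epsti1 was at 4.50, 4.199 and 7.70 CPM under LGK974 and 3.82, 3.99 and 2.09 CPM under DMSO, also separate but with only replicate 3 far from the controls (0.73 ± 0.366, unadjusted p = 0.0834). Ifi44 was at 10.6, 14.9 and 19.7 CPM under LGK974 and 11.8, 6.97 and 5.28 CPM under DMSO, where DMSO replicate 1 lay above LGK974 replicate 1 (0.91 ± 0.343, and 1.32 without DMSO replicate 1). Xaf1, which counters an inhibitor of apoptosis, and Ifi35 overlapped (0.38 ± 0.182 and 0.53 ± 0.367). Ifi27l2a was the only member with its highest value in LGK974 replicate 2 (0.48 ± 0.308).

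**Figure D2:**
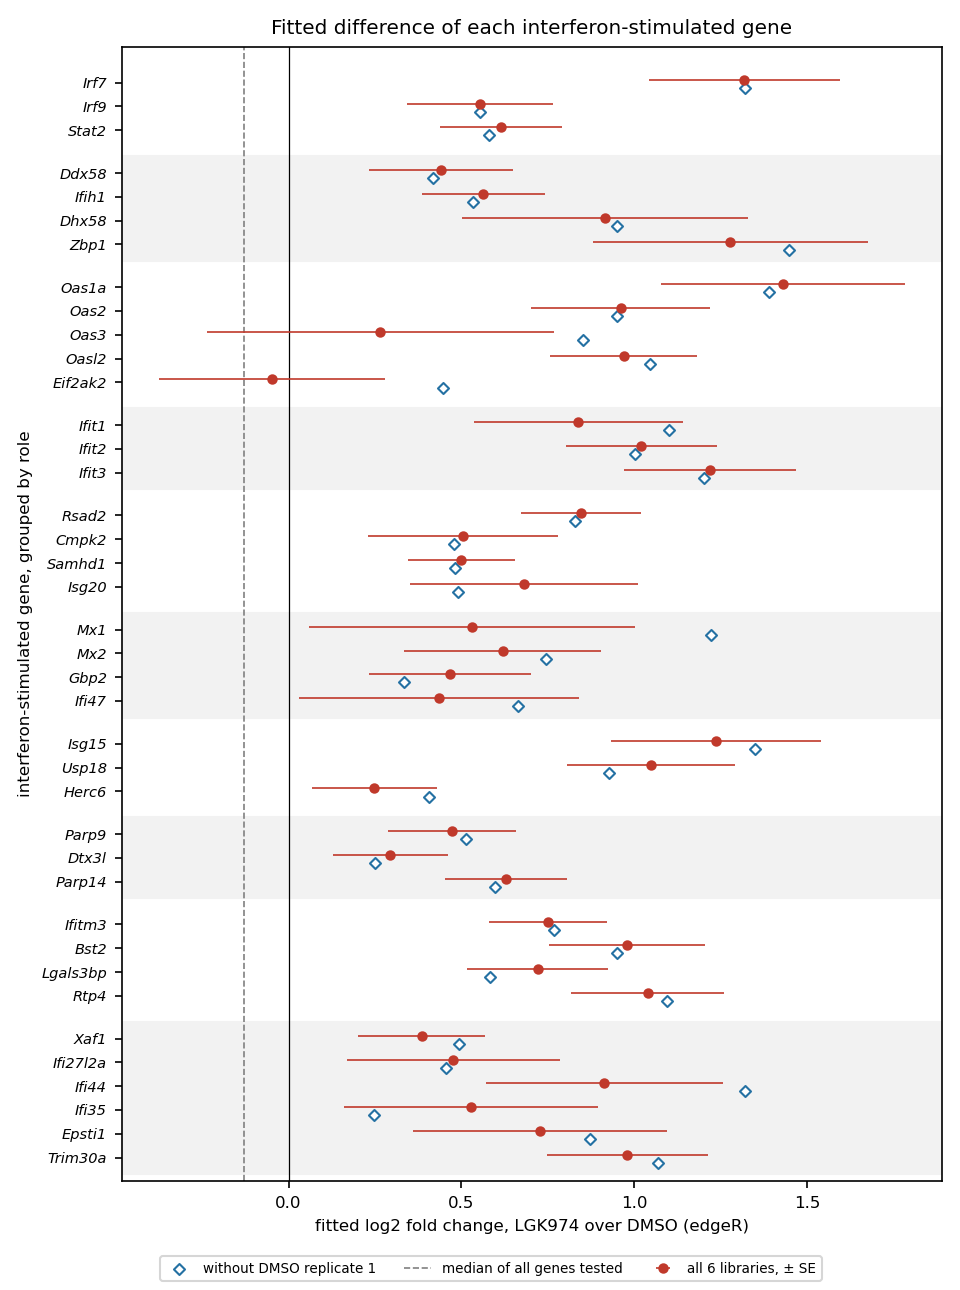
Fitted log2 fold change of each member (edgeR, LGK974 over DMSO), with all 6 libraries as filled circles and standard errors as bars, and without DMSO replicate 1 as open diamonds. With all 6 libraries the values run from −0.05 for Eif2ak2 to 1.43 for Oas1a, the dashed line marks the median of all genes tested at −0.13, and Eif2ak2, Oas3 and Mx1 move furthest to the right without DMSO replicate 1.

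**Figure D3:**
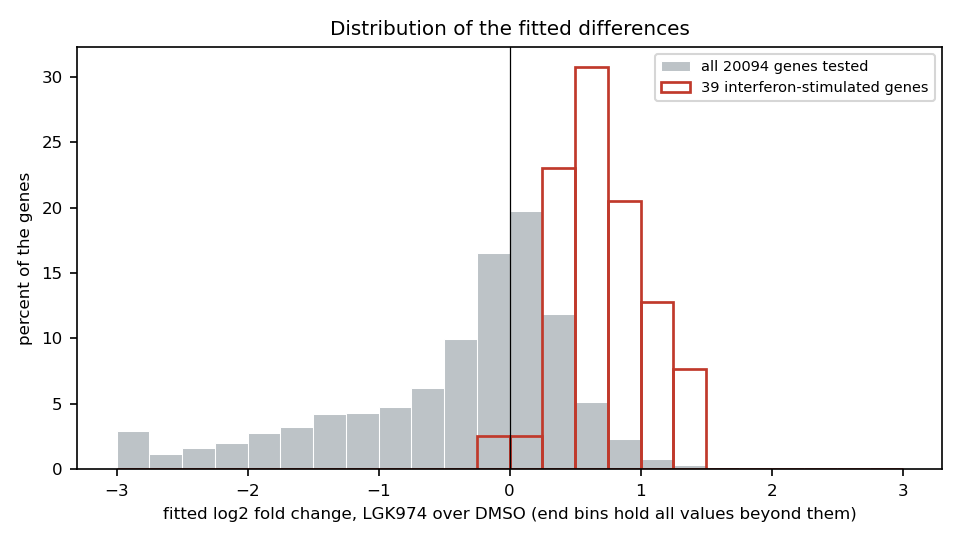
Share of genes in each bin of the fitted log2 fold change, for all 20094 genes tested (grey) and the 39 members (red outline). The members sit between −0.25 and 1.5, with the largest share, 30.8%, between 0.5 and 0.75, where 5.17% of all genes lie.

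The interferons themselves were close to undetectable. The 21 interferon genes listed had summed levels of 1.01, 0.467 and 0.282 CPM under LGK974 and 7.41, 2.21 and 0.393 CPM under DMSO, and 14 to 17 of them were at 0 counts in each LGK974 library. In DMSO replicate 1, by contrast, 20 of the 21 had counts, in the same library in which silent receptor genes had counts. Ifnb1, the interferon that most cells make first, was at 0.0353, 0 and 0 CPM under LGK974 and 0.427, 0 and 0 CPM under DMSO. Ifng, the interferon of T and NK cells, was at 0, 0 and 0.0470 CPM under LGK974 and 0.352, 0.103 and 0 CPM under DMSO. A difference in interferon mRNA was not detectable at this depth. Of the 21, only Ifna2, Ifnk and Ifnz had enough counts to be tested (−1.15 ± 1.58, −1.99 ± 1.37 and −1.14 ± 1.82), each with its highest value in DMSO replicate 1.

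Of the 10 receptor and JAK-STAT genes, 9 were above 0 and 3 had an unadjusted p under 0.05, with a median of 0.28. Over all genes tested, 40.5% were above 0 and 6.26% were higher at an unadjusted p under 0.05. Ifnar1, a chain of the type I receptor, was at 32.0, 29.3 and 36.7 CPM under LGK974 and 22.04, 26.3 and 24.5 CPM under DMSO. Ifnar2, the other chain, was at 33.8, 34.8 and 37.4 CPM under LGK974 and 22.3, 25.2 and 30.7 CPM under DMSO. Both were separate between groups (0.43 ± 0.152 and 0.44 ± 0.161). The receptors for interferon gamma (Ifngr1 and Ifngr2) and the kinases Jak1, Jak2 and Tyk2 overlapped. Without DMSO replicate 1, 7 of the 10 were above 0, against 46.8% of all genes, and the median was 0.14.

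Of 15 genes that lead to interferon production, 13 were above 0, against 40.5% of all genes. In 8 the unadjusted p was under 0.05 (0 lower), against 6.26% of all genes higher. DESeq2 called 1, against 0.985% of all genes. That 1 was Tmem173, which encodes STING, the adaptor of DNA sensing, at 10.6, 10.3 and 13.2 CPM under LGK974 and 5.03, 6.25 and 5.21 CPM under DMSO (1.05 ± 0.198, DESeq2 adjusted p = 0.0193). The lowest treated value was 1.65 times the highest control. Ikbke, a kinase that activates IRF3 and IRF7, was at 7.77, 8.49 and 15.4 CPM under LGK974 and 4.67, 6.41 and 4.84 CPM under DMSO (0.99 ± 0.307). Irf8, a factor of myeloid cells, was at 9.62, 10.5 and 13.8 CPM under LGK974 and 6.64, 9.41 and 6.83 CPM under DMSO (0.57 ± 0.229). Irf3, the factor that starts interferon transcription, was at 15.2, 14.4 and 16.5 CPM under LGK974 and 9.98, 12.9 and 14.1 CPM under DMSO, separate but close (0.32 ± 0.179, unadjusted p = 0.116), and Irf1 overlapped (0.28 ± 0.217).

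Of 10 negative regulators, 8 were above 0, against 40.5% of all genes. In 4 the unadjusted p was under 0.05, all higher, against 6.26% of all genes. Socs3, a feedback inhibitor of JAK kinases, was at 10.5, 12.6 and 16.2 CPM under LGK974 and 5.48, 7.03 and 8.01 CPM under DMSO. Samd9l, a brake on growth and translation that interferon induces, was at 46.2, 43.1 and 57.8 CPM under LGK974 and 32.5, 31.0 and 32.1 CPM under DMSO. Both were separate (0.94 ± 0.234 and 0.62 ± 0.160). The 1 gene of this list called by DESeq2 was Ptpn6, the leukocyte phosphatase SHP-1 (adjusted p = 0.0499, 1.10 ± 0.288 in edgeR), named for its call.

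Another list of 60 interferon-induced genes that are not among the 39, of which 56 could be tested, also leaned upward. In it 43 were above 0, 20 had an unadjusted p under 0.05 in the higher direction and 1 in the lower. The median log2 fold change was 0.39, or 0.48 without DMSO replicate 1. Over all genes tested, 40.5% were above 0 and 6.26% were higher at an unadjusted p under 0.05. DESeq2 called Ifi204, a myeloid DNA sensor, at 44.6, 46.8 and 52.8 CPM under LGK974 and 28.3, 31.6 and 21.6 CPM under DMSO (adjusted p = 0.0146), and Slfn5 (adjusted p = 0.0350), the latter named for its call. Oasl1, which limits the translation of IRF7, was at 8.59, 9.09 and 11.9 CPM under LGK974 and 4.47, 6.41 and 3.44 CPM under DMSO (1.04 ± 0.279). Cxcl10, a chemokine for T cells and NK cells, had the largest difference of the list, at 4.09, 4.55 and 10.8 CPM under LGK974 and 1.61, 0.889 and 2.85 CPM under DMSO (1.86 ± 0.541, DESeq2 adjusted p = 0.0505). All its treated values lay above the controls, with replicate 3 the highest. The gene with an unadjusted p under 0.05 in the lower direction was Iigp1, an interferon-gamma-induced GTPase, at 43.1, 50.3 and 39.5 CPM under LGK974 and 49.7, 65.8 and 78.8 CPM under DMSO (−0.55 ± 0.206), named after its value was seen. Of the 56, 10 had their highest value in DMSO replicate 1, among them Gbp5, named after its values were seen, at 22.5, 20.3 and 18.9 CPM under LGK974 and 98.5, 19.3 and 17.8 CPM under DMSO.

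Markers of leukocytes moved with the members. Of 10 leukocyte markers, 10 were above 0 (median 0.93) and DESeq2 called 4, and of 12 monocyte and macrophage markers, 12 were above 0 (median 0.85) and DESeq2 called 5. Over all genes, 40.5% were above 0 and DESeq2 called 0.985% as higher. None of the 22 leukocyte, monocyte and macrophage markers was at 0 in any library. Cd53, a tetraspanin of leukocytes, was at 9.52, 10.1 and 10.4 CPM under LGK974 and 4.05, 5.56 and 4.72 CPM under DMSO. Spi1, the myeloid factor PU.1, was at 15.9, 15.6 and 18.9 CPM under LGK974 and 6.48, 10.5 and 7.81 CPM under DMSO. Both were separate between groups. Lyz2, the lysozyme of myeloid cells, was at 164, 165 and 212 CPM under LGK974 and 52.2, 81.9 and 85.7 CPM under DMSO (DESeq2 adjusted p = 0.000262). Adgre1, the macrophage marker F4/80, was at 27.3, 27.9 and 24.7 CPM under LGK974 and 11.8, 17.7 and 13.7 CPM under DMSO. In these 4 genes the treated mice were above the controls. Of the 12 monocyte and macrophage markers, 9 were separated, against 10.7% of all genes. Ccr2, Ly6c2 and Cx3cr1 overlapped and were named after their values were seen. Ccr2 was at 16.5, 13.3 and 39.8 CPM under LGK974 and 13.8, 13.7 and 7.34 CPM under DMSO. Ly6c2 was at 4.46, 3.81 and 9.65 CPM under LGK974 and 4.55, 2.81 and 2.87 CPM under DMSO. The fitted difference of Cx3cr1 was 0.20 ± 0.346. The part of the leukocyte, monocyte and macrophage markers in the result for the interferon-stimulated genes was not tested. These values are shares of the RNA of infarct tissue and not counts of cells. In other mice at the same time after I/R, the study counted cells of the heart by flow cytometry. It reported fewer leukocytes and fewer inflammatory monocytes with LGK974. Why the RNA and the cell counts differ in direction was not tested.

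Summed over the 39 members, the level was 813 to 1176 CPM under LGK974 and 549 to 637 CPM under DMSO, 1.58 times higher on average. Summed leukocyte markers were 285 to 393 CPM against 173 to 217 CPM, 1.70 times higher, and summed monocyte and macrophage markers 587 to 706 CPM against 269 to 391.7 CPM, 1.94 times higher. The ratio of the members' sum to the leukocyte sum was 2.51 to 3.07 under LGK974 and 2.90 to 3.18 under DMSO, and the groups overlapped. The ratio to the monocyte and macrophage sum was 1.29 to 1.66 under LGK974 and 1.61 to 2.37 under DMSO, which also overlapped. The ratio to the summed fibroblast markers overlapped as well, at 0.196 to 0.252 under LGK974 and 0.221 to 0.372 under DMSO. The ratio to the summed endothelial markers was separated, at 1.49 to 1.92 under LGK974 and 0.832 to 1.33 under DMSO, and so were the ratios to the cardiomyocyte, neutrophil, T and NK cell and B cell sums.

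Other cell types moved less or in other ways. Neutrophil markers summed to 62.7 to 91.9 CPM under LGK974 and 90.3 to 174 CPM under DMSO, and Retnlg, Ly6g, Ngp and Camp, which define these cells, were at most 0.553 CPM in every library. Cxcr2, a chemokine receptor, was at 16.8, 12.4 and 12.0 CPM under LGK974 and 50.3, 16.6 and 17.2 CPM under DMSO. Lcn2, an iron-binding granule protein, was at 45.9, 55.4 and 21.7 CPM under LGK974 and 94.4, 77.6 and 45.6 CPM under DMSO. Both were higher in the mean of the DMSO mice and overlapped. Of the 6 neutrophil markers that could be tested, 3 were above 0 and 3 below. Those above were S100a8 (0.08 ± 0.306), S100a9 (0.21 ± 0.374) and Mmp8 (1.02 ± 0.531), and Mmp8 was at 1.64 without DMSO replicate 1 (unadjusted p = 0.00378). These 3 were named after their values were seen. Markers of plasmacytoid dendritic cells, known as strong interferon producers, differed in level. Of the 6 that could be tested, 2 were above 0 and 4 below. Ccr9 was at 5.15, 6.36 and 3.93 CPM under LGK974 and 20.1, 6.37 and 4.99 CPM under DMSO, and overlapped. Pacsin1 was at most 0.980 CPM in every library. Ccr9 and Pacsin1 were named after their values were seen. Other markers of these cells were low or at 0. Siglech, their lectin, was at 0.754, 0.523 and 0.893 CPM under LGK974 and 4.50, 1.92 and 0.663 CPM under DMSO, and Ly6d and Klk1 were at 0 in at least 1 library and at most 0.251 CPM in the others. The sum of their list, 455 to 697 CPM under LGK974 and 568 to 964 CPM under DMSO, was mostly Cox6a2 and Tcf4, which other cells of the heart transcribe, and the list also holds the member Bst2. T and NK cell markers summed to 19.5 to 23.6 CPM under LGK974 and 22.3 to 54.7 CPM under DMSO. Cd3e, part of the T cell receptor, was at 0.530, 0.299 and 0.517 CPM under LGK974 and 3.14, 0.393 and 0.884 CPM under DMSO. Cd8a was at 1.76, 2.22 and 2.19 CPM under LGK974 and 14.2, 3.41 and 1.498 CPM under DMSO. Both were highest in DMSO replicate 1. Cd3d, another part of the T cell receptor, was the most abundant of the list, at 16.1, 13.2 and 17.1 CPM under LGK974 and 22.2, 13.3 and 17.6 CPM under DMSO, and was named after its values were seen. B cell markers summed to 6.81 to 10.96 CPM under LGK974 and 6.21 to 22.02 CPM under DMSO. The mean B cell sum under LGK974 was 0.710 times that under DMSO, and 1.21 times without DMSO replicate 1. For the T and NK cell sum these values were 0.667 and 0.982 times. Cd79b, part of the B cell receptor, was at 0.424, 0.317 and 0.971 CPM under LGK974 and 0.176, 0.290 and 0.172 CPM under DMSO. Ms4a1, which encodes CD20, was at 1.12, 0.896 and 0.814 CPM under LGK974 and 5.30, 0.703 and 0.909 CPM under DMSO.

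Of the heart's own cells, 10 of 12 cardiomyocyte markers were below 0 (median −0.39, 0 of the 10 at an unadjusted p under 0.05), with summed levels of 43297 to 60475 CPM under LGK974 and 47874 to 66376 CPM under DMSO. The 2 above 0 were Actc1 and Nppa, both of which also increase in stressed heart muscle, and DESeq2 called both (adjusted p = 0.0423 and 0.00324). Fibroblast markers were higher (9 of 9 above 0, summed level 3473 to 6009 CPM under LGK974 and 1713 to 2518 CPM under DMSO, 1.99 times), led by Postn and Col3a1 (1.56 ± 0.301 and 1.14 ± 0.319), and endothelial markers differed little (546 to 612 CPM under LGK974 and 479 to 660.3 CPM under DMSO, 1.03 times).

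**Figure D4:**
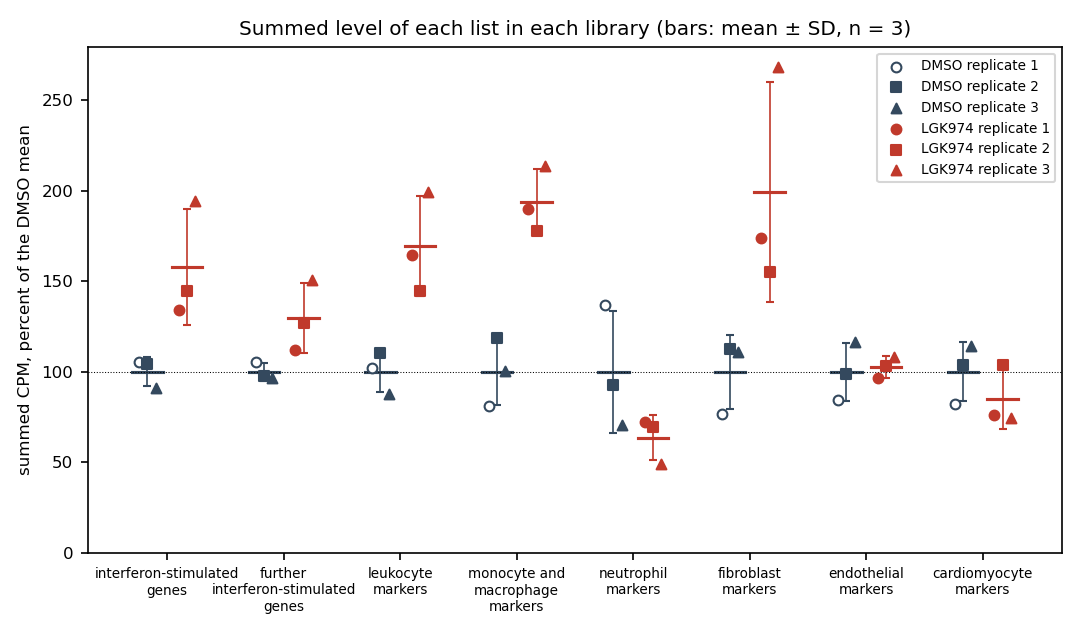
Summed CPM of the members and of 7 other gene lists in each library, as percent of the DMSO mean, with each library as a point and bars for mean ± SD (n = 3). The members (134 to 194% under LGK974), the leukocyte markers (145 to 199%) and the monocyte and macrophage markers (178 to 214%) are above every DMSO library. So are the fibroblast markers (155 to 269%) and the further interferon-stimulated genes (112 to 151%). Endothelial, cardiomyocyte and neutrophil markers overlap.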

How the data were processed

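RNA from the infarct area of 3 LGK974-treated and 3 DMSO-treated mice was sequenced (HiSeq2000). The authors quantified transcripts with Kallisto against an index of GRCm38 and deposited 1 table a library with the estimated count of 118489 transcripts. These values can be fractional, because a read that fits more than 1 transcript is shared out among them. The deposited TPM values, in the same tables, correct for transcript length and library total. Read trimming, strand and the version of Kallisto are not given in the sources used here, and both a ribosomal RNA depletion kit and an exome capture kit are named for the libraries.

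Transcripts were joined to genes with GENCODE M21 (GRCm38, 98.6% joined), summed per gene and rounded. The groups came from the titles of the samples, and the mice are separate animals. The main fit was edgeR 4.0.16 (with limma 3.58.1 in R 4.3.3), quasi-likelihood test, with TMM scaling on all 6 libraries, a filter of 10 counts in 3 or more libraries and Benjamini-Hochberg adjustment at 0.05 over 20094 genes. DESeq2 1.42.0, named in the methods of the study, was the alternative. It gave an adjusted p to 22238 of its genes. No test was run over the list. CPM are estimated counts over the TMM-scaled library size. Depth of 41579787 to 80398211 counts gave 33 of the 39 members over 100 counts in every library. The lowest counts of the other 6, Ifi47, Oas1a, Isg20, Epsti1, Mx2 and Ifi35, were 54 to 92, a counting error of 10.4 to 13.6%, and the number of mice limits precision too. The tests were tested on simulated data, where edgeR kept false calls under its threshold and DESeq2 made more of them than its threshold allows. That result is a caution for each call reported from DESeq2 and not a rate of false calls in these libraries. The changes put into the simulated data were larger than the difference of any member, and power at the members' sizes was not tested. The common dispersion, edgeR's measure of spread between libraries, was 0.238 with all 6 libraries and 0.116 without DMSO replicate 1. The simulated data had the same dispersion for every gene, and it was below both of these values. Whether either test makes false calls at the same rate in these libraries, with DMSO replicate 1 standing apart, was not tested. Python 3.11.15, NumPy 2.4.6, pandas 2.3.3 and matplotlib 3.10.9 made the tables and figures. Of the 39 members, 38 are annotated as protein-coding. Mnda, Ifi30 and Pyhin1, listed beside the members as further interferon-induced genes, were not analysed here.

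The members, the other gene lists and the markers were chosen with earlier results of these data known, and support no claim of their own. Values by library were given, up to 30 members by p-value, for the 2 members of each role with the smallest p-value, members with an unadjusted p under 0.05 and members whose groups did not overlap, for Ifnb1, Ifng, Ifnar1, Ifnar2, Irf1, Irf3, Irf8 and Cxcl10, and for the 2 genes of each other list with the smallest p-value. Another gene that the rule names is not reported here. Genes named outside this rule are marked as chosen after their values were seen. The alternatives changed normalization, test, low-count filter, replicate block, counting unit, mitochondrial and background counts, and left out libraries.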

Additional observations from a re-analysis of the deposited data

How the results depend on the processing

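Over 20 settings the members' median log2 fold change stayed between 0.53 and 0.87, with 37 to 39 of 39 above 0 and 19 to 29 at an unadjusted p under 0.05. The count of members past the adjusted threshold was the part that depended on the setting. It was 0 in edgeR as reported, with either other normalization, with limma-voom, at 50 counts, and without any 1 library (range 0 to 0), 11 with DESeq2, 16 with DESeq2 without DMSO replicate 1 and 15 with no low-count filter. Over all genes the counts were 315, 326 and 1206 in those 3 settings, 0 to 2 without any 1 library and 1 without both DMSO replicate 1 and LGK974 replicate 3. With a replicate block, which takes the shared replicate numbers as pairs, 24 members had an unadjusted p under 0.05 and 0 passed (lowest adjusted p 0.123). Over all 20094 genes, 3312 had an unadjusted p under 0.05 in that fit, in either direction. For each gene the mean log2 CPM of the group was subtracted, and the remaining deviations were correlated between libraries of the 2 groups. Deviations of same-numbered libraries correlated at 0.475, −0.0482 and 0.391, and those of different-numbered libraries at −0.518 to 0.1. These are not correlations of the levels themselves. Whether the numbers pair the mice was not tested, and there was no adjusted call for the block to end. The cause of these shifts was not tested.

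DESeq2 without DMSO replicate 1, the fit without that library and LGK974 replicate 3, and the protein-coding transcripts were added after the data were seen. The 28 members named by the rule, which leaves out Ddx58, Oas3 and Eif2ak2 among others, gave 531 values under alternatives, of which 0 had the opposite sign and 41 passed the adjusted threshold where the reported fit did not. Of the other 11 members, Oas3 (0.27) was −0.0591 without LGK974 replicate 3, Ddx58 (0.44) was −0.21 with counts from TPM, and Eif2ak2 (−0.05) was above 0 in 8 settings (0.0486 with the replicate block to 0.45 without DMSO replicate 1). Most of what reversed was in lists near 0 or with few counts. The median of the 3 interferon ligands was −1.15, and it was −2.53 with limma-voom, −2.44 with the replicate block, −2.94 to −0.28 without 1 library, −0.34 with DESeq2 without DMSO replicate 1 and 0.31 without both libraries. At 50 counts and with the background subtracted no ligand was left to test. Neutrophil markers (−0.07) gave 0.0833 with no filter, 0.15 with counts from TPM, 0.0721 without both libraries and −0.28 to 0.15 without 1 library, among them 0.15 without LGK974 replicate 2 and 0.09 without DMSO replicate 3. T and NK cell markers (−1.36) gave −1.62 to −0.13 without 1 library, −0.18 with DESeq2 without DMSO replicate 1 and −0.0306 without both. B cell markers (−0.23) gave 0.0426 with counts from TPM, 1.03 with the background subtracted, 0.35 with DESeq2 without DMSO replicate 1 and −0.60 to 0.37 without 1 library, among them 0.04 without LGK974 replicate 1. Endothelial markers (0.03) gave −0.0152 at 50 counts, −0.0625 with the background subtracted, −0.0852 with DESeq2 without DMSO replicate 1, −0.0470 without both and −0.0672 to 0.27 without 1 library. Monocyte and macrophage markers gave 0.78 to 1.11 and cardiomyocyte markers −0.56 to −0.13 without 1 library. Ifna2 (−1.15) was 0.36, 0.34 and 0.92, and Ms4a1 (−1.28) 0.25, 0.23 and 0.37, without DMSO replicate 1, with DESeq2 without it and without both libraries, and over the fits without 1 library they ran from −1.81 to 0.36 and from −1.58 to 0.25. The longer ISRE was in 27.6% of member promoters in place of 48.3%.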
